A study of Arabidopsis thaliana with 6 samples.

Results

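In Arabidopsis cotyledons, 109 of 22746 probe sets had a higher signal in the mutant sicy-192 than in wild type and a lower signal in the double mutant sicy-192 gun1-101 than in sicy-192. They were chosen by 3 thresholds on v, the mean log2(signal + 16) of the arrays of a genotype. The value of v was at least 1 higher in sicy-192 than in wild type, at least 1 lower in sicy-192 gun1-101 than in sicy-192, and averaged at least 6 over the genotypes. Control probe sets were left out, as were plastid-encoded genes whose symbol begins with psa, psb, pet, atp, ndh, rpl, rps, rpo or rbcL. The plastid exclusion removed 3 probe sets, those of psbN, rpoC1 and rpoC2. Probe sets without a gene symbol could not be screened in this way. Of the 109 members, 58 have a single named gene, 2 have several genes and 49 have none in the gene table used here. Among the 58 genes, 8 carry a gene name and the others only a locus number, so no role is given for those.

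The arrays came from sicy-192 gun1-101, sicy-192 and wild-type plants, with 2 arrays per genotype and 6 in all. All were of the Col-0 ecotype and were raised for 4 days on MS medium with 100 mM sucrose, with days of 16 h at 25 °C and a light intensity of 100 µmol per m2 per s and nights of 8 h at 22 °C, before cotyledons were taken. The labels call the arrays of a genotype biological replicates, but do not say that their plants grew separately. The p-values therefore cover the spread between these arrays only, which may be technical. A gun1-101 single mutant was not analysed here, so what gun1-101 does in the wild-type background is not known from these arrays. Each genotype was sampled from whole cotyledons, in which fewer cells of a type and less RNA per cell cannot be told apart.

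The sicy line, named for its sugar-inducible cotyledon yellow phenotype, has a mutated, overactive form of an invertase of the plastid, an enzyme that splits sucrose into glucose and fructose. GUN1 is a plastid pentatricopeptide repeat protein known for its part in signalling from plastids to the nucleus, in which the state of the chloroplast alters the expression of nuclear genes. Genes that respond to a plastid disturbance can therefore be sorted by whether their response still appears when GUN1 is mutated.

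Across all members, the median of v was 1.42 higher in sicy-192 than in wild type, with a range of 1.0 to 5.23, against a median of 0.16 over all tested probe sets. The double mutant lay below sicy-192 by a median difference of -1.38, between -3.11 and -1.0, against -0.05 over all tested probe sets. These differences chose the members and are given without a test. The fall in the double mutant was between 19.9% and 212.6% of the rise, with a median of 94.4%. It was at least as large as the rise in 47 members and under 50% of it in 6. Signals averaged 21.6 to 3321 in sicy-192 gun1-101 (median 152), 100.0 to 7900 in sicy-192 (median 584) and 3.64 to 2817 in wild type (median 140).

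**Figure D1:**
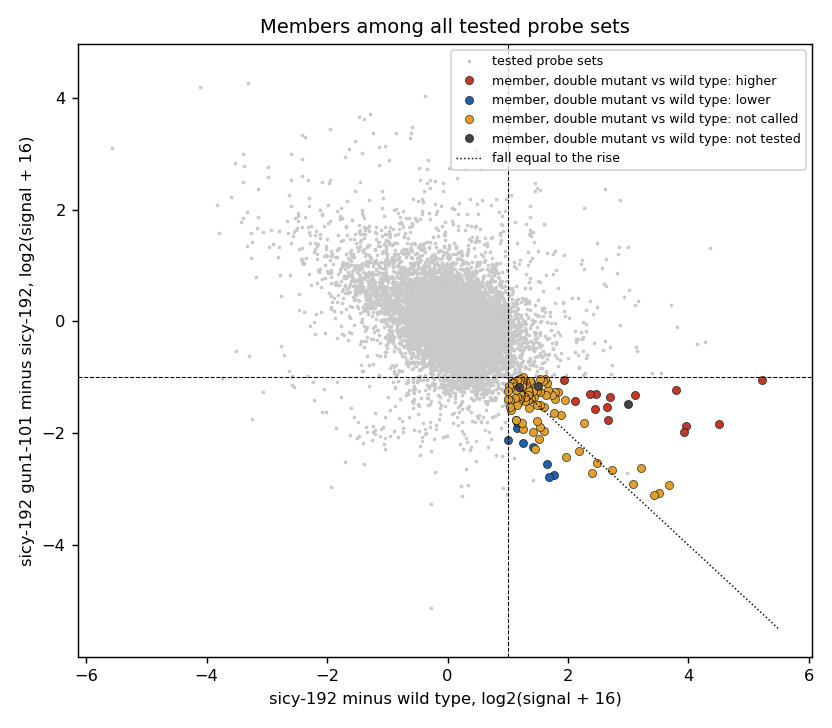
Each point is a probe set, with the difference sicy-192 minus wild type on the horizontal axis and sicy-192 gun1-101 minus sicy-192 on the vertical axis, both in log2(signal + 16); grey points are all tested probe sets and coloured points the members. Dashed lines mark the thresholds, which fix the corner the members fill, and the 14 members called higher in the double mutant than in wild type lie above the dotted line, where the fall is smaller than the rise.

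Both sicy-192 arrays were above the other 4 arrays in 105 of the 109 members, an order that 19.7% of all tested probe sets share and that the thresholds favour. The 4 exceptions were AT2G15560, AT1G19200 and the unnamed probe sets 265672_at and 264146_at. AT2G15560 had signals of 43.5 and 8.73 in sicy-192 gun1-101, 5.85 and 2851 in sicy-192, and 27.5 and 35.9 in wild type. Its place among the members thus comes from 1 sicy-192 array, and the other sicy-192 array was below all the rest. The arrays of a genotype were more than 2-fold apart in 11 members for sicy-192 gun1-101, in 4 for sicy-192 and in 14 for wild type, where 19 members had a mean signal under 50.

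The same thresholds were also applied to the arrays of 1 replicate number and the result read in the arrays of the other. Replicate 1 alone gave 132 probe sets, of which 127 (96.2%) were higher in sicy-192 than in wild type and lower in the double mutant than in sicy-192 in replicate 2, an order held by 40.3% of all tested probe sets. Both thresholds on the differences were met again by 69 of them (52.3%), against 0.96% of all tested probe sets. Replicate 2 alone gave 138, of which 134 (97.1%) kept both signs in replicate 1 and 68 (49.3%) met both thresholds there. These shares describe how far the arrays of a genotype agree, and they are no test of the members. Such agreement may be technical.

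The difference between sicy-192 gun1-101 and wild type carries no threshold of its own, although its arrays also served to choose the members. It was tested with limma across 14785 probe sets, with Benjamini-Hochberg adjustment over all of them and calls at an adjusted p under 0.05, and 106 members were bright enough to be tested. The other 3, AT4G01700, AT1G19200 and the unnamed 248611_at, lay below the filter on dim probe sets. In the double mutant 14 members were higher than in wild type, which is 13.2% of those tested against 17.3% of all probe sets. A further 9 were lower, which is 8.49% against 12.8%. The remaining 83 were not called. Of the 106 tested, 12 averaged below 50, the signal at the filter, in both the double mutant and wild type. These 12 were tested because of their sicy-192 signal, 0 were called, and they count in the shares given here. With the replicate number as a block, the counts were 21 higher and 17 lower, and without replicate 2 of the double mutant 5 were lower. The bioB spike-in control moved with the replicate number, at 313 and 51.6 in replicates 1 and 2 of sicy-192 gun1-101, 379 and 68.8 in those of sicy-192, and 391 and 61.6 in those of wild type. Within replicate 1 the members' median difference between double mutant and wild type was 0.03, and within replicate 2 it was 0.1. At an unadjusted p under 0.05, 18 members were higher and 13 lower. Both arrays of the double mutant were above both wild-type arrays in 30 members (28.3% of those tested, against 37.9% of all probe sets) and below both in 17 (16.0%, against 28.9%). The median difference was 0.08 over the members and 0.07 over all tested probe sets. Centring each array on its median changes the split of all calls in this comparison, with 45.1% of them higher against 57.5% here.

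**Figure D2:**
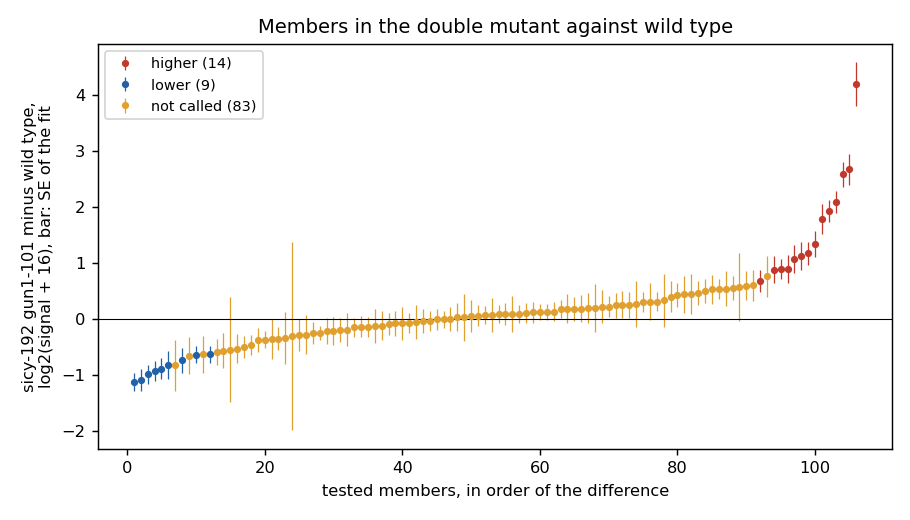
The difference sicy-192 gun1-101 minus wild type, in log2(signal + 16), is shown for the 106 tested members in rising order, with the standard error of the limma fit as bars. Most points lie near 0, the 14 called higher reach 4.19 and the 9 called lower reach -1.13. The 12 members with both groups below a signal of 50 are included.

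The members called higher were mainly those with the largest excess in sicy-192. Of the 23 tested members with a rise of at least 2, 13 were higher in the double mutant than in wild type and 0 were lower, while of the 83 with a smaller rise 1 was higher and 9 were lower. The 3 differences of a member add up, so a large rise with a fall near the threshold leaves an excess over wild type. A rise under 2 with a fall of at least 1 leaves an excess below 1. A member with a rise of at least 2 is lower than wild type only if its fall is larger still. The split thus follows in part from the thresholds and is no separate result.

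AT1G17960 had the largest excess of all. Its signals were 910 and 831 in sicy-192 gun1-101, 1769 and 1849 in sicy-192, and 67.2 and 12.3 in wild type. The double mutant kept well above wild type, with arrays that did not overlap, at a difference of 4.19 ± 0.39 (SE) and a limma adjusted p of 0.000164. AT2G47780 had signals of 1545 and 976 in sicy-192 gun1-101, 4751 and 5062 in sicy-192, and 327 and 293 in wild type. Here too the groups did not overlap, and the double mutant exceeded wild type by 1.93 ± 0.20 (limma adjusted p = 0.000285). AT5G60250 had signals of 459 and 415 in sicy-192 gun1-101, 913 and 1178 in sicy-192, and 44.9 and 78.6 in wild type. The double mutant was higher than wild type by 2.58 ± 0.23 (limma adjusted p = 0.000137), again without overlap.

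Smaller excesses over wild type remained for 3 further named genes. AT1G49050 had signals of 185 and 205 in sicy-192 gun1-101, 387 and 456 in sicy-192, and 103 and 92.6 in wild type, a difference between double mutant and wild type of 0.89 ± 0.18 (limma adjusted p = 0.00698). AT1G10050, whose synonym ATXYN2 marks it as a xylanase gene, an enzyme class that cleaves the xylan of plant cell walls, had signals of 143 and 102 in sicy-192 gun1-101, 367 and 545 in sicy-192, and 57.8 and 56.7 in wild type. It was higher in the double mutant by 0.90 ± 0.25 (limma adjusted p = 0.0239), without overlap, but lost its call under 4 of the 16 alternatives that tested it, in which the adjusted p reached 0.148. AT2G47680 was higher by 0.88 ± 0.24 (limma adjusted p = 0.0233), with signals of 217 and 190 in sicy-192 gun1-101, 504 and 789 in sicy-192, and 120 and 87.6 in wild type, and lost its call under 4 alternatives, in which the adjusted p reached 0.114. The other 8 members called higher have no single named gene. The brightest of them, 253041_at, had signals of 4213 and 2429 in sicy-192 gun1-101, 8023 and 7776 in sicy-192, and 1775 and 1303 in wild type. It lost its call under 2 alternatives, without wild-type replicate 2 and without replicate 1 of the double mutant.

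**Figure D3:**
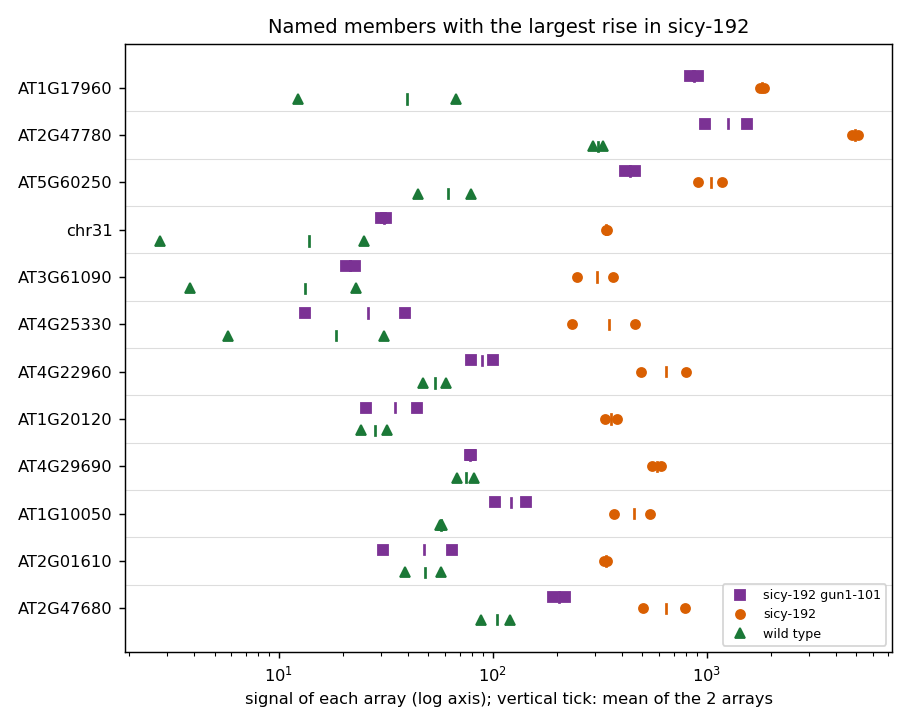
Signals of each array are shown on a log axis for the 12 named members with the largest rise in sicy-192, with a vertical tick at the mean of the arrays of a genotype. In AT1G17960, AT2G47780 and AT5G60250 the double mutant lies between sicy-192 and wild type, whereas in chr31, AT3G61090 and AT4G25330 both the double mutant and wild type have low signals.

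Several members with a large rise had low signals in both the double mutant and wild type. In 12 tested members both groups averaged below 50, the signal at the filter, so that they were tested because of their sicy-192 signal, and none of the 12 was called by limma. These dim values do not show a return to the wild-type level. The largest rise among them was that of chr31, chromatin remodeling 31, which belongs to the CLASSY proteins that help to recruit RNA polymerase IV in RNA-directed DNA methylation. Its signals were 31.6 and 30.1 in sicy-192 gun1-101, 339 and 340 in sicy-192, and 24.9 and 2.78 in wild type. The sicy-192 arrays stood far above the other 4, and both double mutant arrays lay above both wild-type arrays. The difference of 0.76 ± 0.36 (limma adjusted p = 0.141) was the largest among the 83 uncalled members, and 1 alternative called it higher. Of 15 listed genes of RNA-directed DNA methylation, 3 have a named probe set and chr31 alone was bright enough to be tested. Of the others, CHR40 had 44.5 and 22.7 in sicy-192 gun1-101, 48.5 and 34.0 in sicy-192, and 12.2 and 30.2 in wild type. CHR42 had 50.6 and 32.3 in sicy-192 gun1-101, 20.6 and 29.8 in sicy-192, and 11.6 and 5.15 in wild type. AT3G61090 had signals of 22.6 and 20.6 in sicy-192 gun1-101, 248 and 365 in sicy-192, and 22.9 and 3.84 in wild type. AT4G25330 had signals of 39.0 and 13.3 in sicy-192 gun1-101, 234 and 463 in sicy-192, and 31.1 and 5.76 in wild type. In both genes the arrays of the double mutant and of wild type overlapped. AT1G20120 had signals of 44.1 and 25.5 in sicy-192 gun1-101, 380 and 334 in sicy-192, and 32.0 and 24.1 in wild type.

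AT4G29690 and AT4G29700 lie next to each other with 0 annotated protein-coding genes between them. They are the only such pair among the 58 members with a single named gene, and the others could not be placed. AT4G29690 had signals of 79.1 and 78.0 in sicy-192 gun1-101, 557 and 610 in sicy-192, and 82.0 and 67.7 in wild type. AT4G29700 had signals of 58.4 and 47.8 in sicy-192 gun1-101, 475 and 443 in sicy-192, and 141 and 121 in wild type. The neighbours differed in the double mutant, where AT4G29690 overlapped wild type (0.06 ± 0.19, limma adjusted p = 0.834) and AT4G29700 was lower than wild type without overlap (-1.09 ± 0.20, limma adjusted p = 0.00417). The difference between the neighbours was not tested.

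Of the 12 named members with the highest signal in sicy-192, AT1G17960 and AT2G47780 were called higher in the double mutant than in wild type, AT1G67910 was called lower, and the other 9 were not called. AT1G55210 had signals of 1354 and 1550 in sicy-192 gun1-101, 3914 and 5266 in sicy-192, and 1246 and 1401 in wild type. AT3G14220 had signals of 1643 and 1682 in sicy-192 gun1-101, 4149 and 3808 in sicy-192, and 1924 and 2035 in wild type. The double mutant overlapped wild type in AT1G55210 and lay just below it in AT3G14220 (-0.25 ± 0.13, limma adjusted p = 0.182). AT1G29980 differed by 0.12 ± 0.14 (limma adjusted p = 0.569), AT1G54120 by -0.01 ± 0.18 (limma adjusted p = 0.981), AT1G14120 by 0.18 ± 0.16 (limma adjusted p = 0.446), AT5G20700 by -0.04 ± 0.18 (limma adjusted p = 0.897) and AT5G19090 by 0.22 ± 0.19 (limma adjusted p = 0.399). An uncalled difference does not show equal levels. Over the 83 uncalled members the difference ran from -0.83 to 0.76 with a median standard error of 0.23, and 68 lay within 0.5 of 0. The 83 include the 12 members with both groups below a signal of 50, among them chr31 at 0.76.

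Of the genes with a name, TMT1 is the tonoplast monosaccharide transporter1, which moves sugars into the vacuole. It had signals of 466 and 494 in sicy-192 gun1-101, 1177 and 1463 in sicy-192, and 452 and 617 in wild type. The double mutant fell within the span of the wild-type arrays (-0.14 ± 0.18, limma adjusted p = 0.614). SAG101, senescence-associated gene 101, encodes a protein that works with EDS1 in plant immunity. It had signals of 85.3 and 101 in sicy-192 gun1-101, 206 and 234 in sicy-192, and 96.7 and 95 in wild type, and the double mutant spanned the wild-type arrays. IAA34, a gene of the Aux/IAA family of auxin response repressors, had signals of 54.0 and 63.0 in sicy-192 gun1-101, 123 and 245 in sicy-192, and 60.6 and 48.0 in wild type. The sicy-192 arrays of IAA34 lay far apart, both above the other 4.

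ATPMEPCRB, pectin methylesterase 41, belongs to the enzymes that remove methyl groups from cell wall pectin. It had signals of 198 and 353 in sicy-192 gun1-101, 789 and 631 in sicy-192, and 315 and 303 in wild type. EXO, EXORDIUM, is known from brassinosteroid-promoted growth and had signals of 1051 and 652 in sicy-192 gun1-101, 2509 and 2338 in sicy-192, and 1211 and 1148 in wild type. Both double mutant arrays of EXO lay below both wild-type arrays, at a difference of -0.50 ± 0.20 that was not called (limma adjusted p = 0.0937). The serine carboxypeptidase-like gene scpl35 had signals of 1195 and 1238 in sicy-192 gun1-101, 2498 and 2489 in sicy-192, and 547 and 1164 in wild type. Its wild-type arrays differed more than 2-fold, and the double mutant was not called against them (0.60 ± 0.28, limma adjusted p = 0.137).

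**Figure D4:**
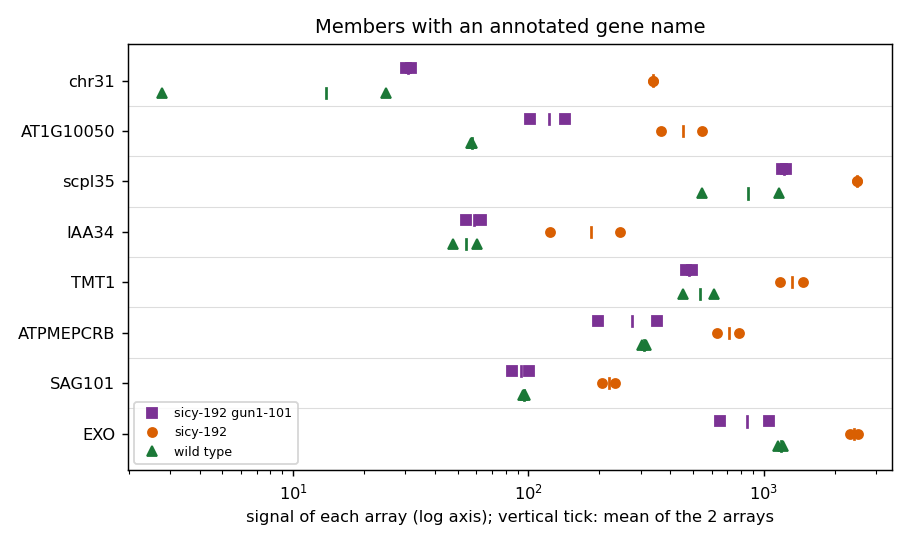
Signals of each array are shown on a log axis for the 8 members with a gene name, with a vertical tick at the mean of the arrays of a genotype. The sicy-192 arrays are the highest in every gene shown, and the double mutant overlaps wild type in IAA34, TMT1, ATPMEPCRB and SAG101.

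The double mutant was lower than wild type in 9 members, of which 5 have a single named gene, AT4G29700 among them. AT1G67910 had signals of 545 and 697 in sicy-192 gun1-101, 2617 and 2899 in sicy-192, and 1453 and 1285 in wild type. Its 3 genotypes did not overlap, and the double mutant was lower than wild type by a difference of -1.13 ± 0.16 (limma adjusted p = 0.00127). AT1G53070 had signals of 178 and 189 in sicy-192 gun1-101, 1395 and 948 in sicy-192, and 359 and 350 in wild type, a difference of -0.89 ± 0.19 (limma adjusted p = 0.00891). Without replicate 1 of the double mutant its adjusted p was 0.0526, the highest over its 17 alternatives. AT3G05600 had signals of 342 and 335 in sicy-192 gun1-101, 1102 and 1339 in sicy-192, and 516 and 560 in wild type (-0.64 ± 0.15, limma adjusted p = 0.0139). AT3G43960 had signals of 130 and 119 in sicy-192 gun1-101, 515 and 822 in sicy-192, and 191 and 284 in wild type (-0.83 ± 0.25, limma adjusted p = 0.036). The groups did not overlap in any of these, but AT3G05600 lost its call under 3 alternatives, with adjusted p up to 0.071, and AT3G43960 under 5, with adjusted p up to 0.18. Of the unnamed probe sets, 255443_at fell to 101 and 92.2 in sicy-192 gun1-101, against 196 and 219 in wild type, and had 780 and 704 in sicy-192. AT1G67865 had a difference of the same size as AT3G43960 that was not called (-0.83 ± 0.45, limma adjusted p = 0.194), since its wild-type arrays were 132 and 36.4, against 42.9 and 26.0 in sicy-192 gun1-101.

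The 22 other named members, AT2G15560 included, had rises of 1.02 to 2.4 and falls of -2.71 to -1.09. Their difference between double mutant and wild type ran from -0.63 to 0.46. The rise of 2.4 and the fall of -2.71 are both those of AT2G15560, with sicy-192 signals of 5.85 and 2851. Without it the largest rise was 2.27 (AT1G30160) and the largest fall -2.42 (AT5G67460). None of the 22 was called in that comparison by limma. The 51 members without a single named gene had rises of 1.03 to 4.5 and falls of -2.75 to -1.0, and 8 of them were called higher and 4 lower in the double mutant than in wild type.

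Genes that share a family name with a named member were compared, over the tested genes of each family that are no members. The match was by name only, so the genes of a family need not be alike in protein or function. The families were collected after the data had been seen. Of all tested probe sets, 13.8% were higher and 9.21% lower in sicy-192 against wild type, and 9.54% were higher and 11.2% lower in the double mutant against sicy-192. For scpl35, 11 other serine carboxypeptidase-like genes were tested, of which 3 were higher in sicy-192 than in wild type and 4 were lower in the double mutant than in sicy-192. The genes called in both, as 3.27% of all tested probe sets were, were scpl50 and scpl20. The gene scpl50 had signals of 283 and 266 in sicy-192 gun1-101, 670 and 508 in sicy-192, and 328 and 377 in wild type. In scpl20 the signals were 173 and 144 in sicy-192 gun1-101, 299 and 242 in sicy-192, and 146 and 160 in wild type. Both genes peaked in sicy-192, by less than the thresholds on both sides in scpl20 and on the first in scpl50. The 3 calls in sicy-192 did not stand under every setting, with 0 under quantile normalization, under median centring, without wild-type replicate 1 and without sicy-192 replicate 1. Against wild type, the double mutant was lower in 5 of the 11, beside 12.8% of all tested probe sets, led by SCPL27 with 55.7 and 80.5 in sicy-192 gun1-101 and 171 and 189 in wild type (-1.24 ± 0.23, limma adjusted p = 0.00474). That count was 1 without wild-type replicate 1 and 2 without replicate 1 of the double mutant.

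Neither in sicy-192 against wild type nor in the double mutant against sicy-192 was a call made for TMT2 and TMT3 beside TMT1, for CHR23 and CHR24 beside chr31, for IAA18 beside IAA34, for PMEPCRF beside ATPMEPCRB, or for SAG29 beside SAG101. Among all family genes that are no members, tested or not, 1 met both thresholds on the differences. This was IAA20, too dim to be tested, with 31.3 and 4.27 in sicy-192 gun1-101, 84.2 and 69.1 in sicy-192, and 22.4 and 14.8 in wild type. Quantile normalization and median centring each called IAA18 lower in sicy-192, with wild type as the comparison. A list of 10 tested genes known from the response to mitochondrial dysfunction held 0 members. Members are 0.479% of all probe sets, so most lists of this size would hold none. In the list, 4 genes were higher (against 13.8% of all tested probe sets) and 1 was lower (against 9.21%) in sicy-192 relative to wild type. In the double mutant 5 were higher (against 9.54%) and 0 were lower (against 11.2%) than in sicy-192. For example, AT2G04050 had signals of 3331 and 3307 in sicy-192 gun1-101, 943 and 1867 in sicy-192, and 62.1 and 39.3 in wild type, so that its excess in sicy-192 was larger still in the double mutant. The count of 5 was 3 when replicate 1 or replicate 2 of the double mutant was left out.

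**Figure D5:**
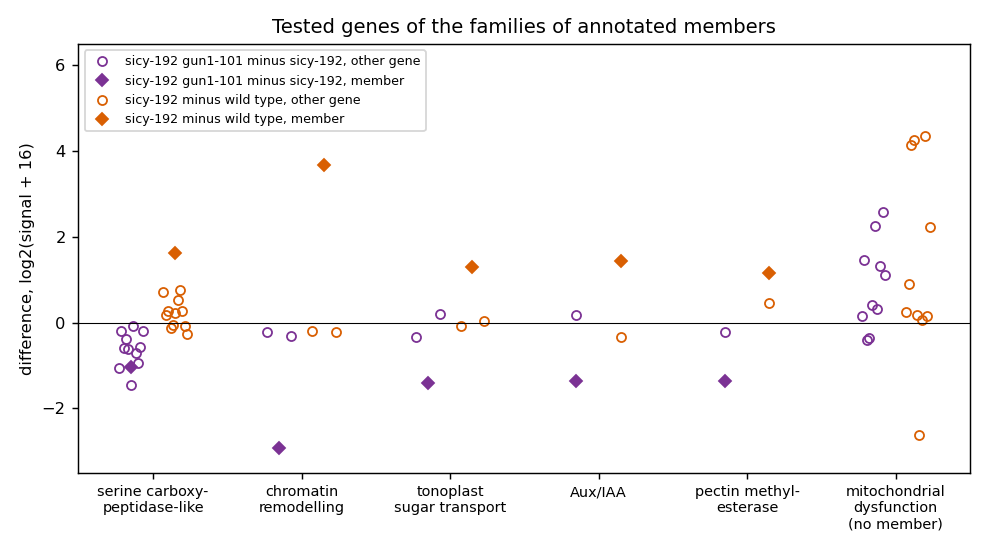
Each point is a tested gene, with the difference in log2(signal + 16) on the vertical axis, sicy-192 gun1-101 minus sicy-192 in purple and sicy-192 minus wild type in orange; filled diamonds are members, whose values the thresholds fixed, and open circles other genes of the family. The diamonds lie above the open circles in orange in each family that has a member, and the mitochondrial dysfunction list, which has none, holds 4 genes above 2 in orange whose purple values run from -0.40 to 1.31. The families were chosen because they hold a member, and the list was not.

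Protein-coding genes next to a named member on the chromosome were read in the same way. Of 53 such genes that are no members and have a probe set, 1 was at least 1 higher in sicy-192 than in wild type, against 3.4% of all probe sets, and 2 were at least 1 lower in the double mutant than in sicy-192, against 3.18%. Of the 32 bright enough to be tested, 8 were higher in sicy-192, 6 were lower in the double mutant than in sicy-192, and 3 were called in both. The shares of all tested probe sets were 13.8%, 11.2% and 3.27%, in that order. The gene at least 1 higher was LPR1 beside AT1G23000, with 298 and 517 in sicy-192 gun1-101, 127 and 113 in sicy-192, and 29.5 and 43.1 in wild type, which was higher again in the double mutant. AT1G67860 beside AT1G67865 had 5.6 and 61.2 in sicy-192 gun1-101, 342 and 276 in sicy-192, and 239 and 98.2 in wild type. AT1G53060 beside AT1G53070 had 97.9 and 89.1 in sicy-192 gun1-101, 265 and 266 in sicy-192, and 166 and 128 in wild type. The 3 genes called in both were AT1G53060, AT1G28580 and AT4G29680. AT1G28580 beside AT1G28570 had 1744 and 1675 in sicy-192 gun1-101, 2992 and 3422 in sicy-192, and 1832 and 1688 in wild type. AT4G29680 beside AT4G29690 had 809 and 771 in sicy-192 gun1-101, 1089 and 1209 in sicy-192, and 721 and 742 in wild type. In these 3 genes both sicy-192 arrays were the highest, by less than the threshold on the rise. Chromosome 1 held 22 of the 58 named members (37.9%), against 26.4% of the tested probe sets with a named gene. The 58 include AT4G01700 and AT1G19200, which lay below the filter, and the difference between the shares was not tested.

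The thresholds cut through a continuous range. Just inside the rise lay AT3G14220 at 1.0 and just outside it AT1G63750 at 0.987. Just inside the fall lay AT5G18490 at -1.026, and just outside it APL3 at -0.998. On level, AT1G19200 at 6.03 was just inside and AT3G21310 at 5.93 just outside. APL3, a large subunit of the starch synthesis enzyme ADP-glucose pyrophosphorylase, had signals of 718 and 541 in sicy-192 gun1-101, 1281 and 1239 in sicy-192, and 451 and 775 in wild type.

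Some markers and controls moved with the genotypes, and their part in the members' values was not tested. The summed signal of 4 photosynthetic genes (RCA, PSAN, LHCB4.1 and PRK) was 68837 and 54105 in sicy-192 gun1-101, 39972 and 30680 in sicy-192, and 115331 and 85118 in wild type. The sum was lowest in sicy-192, where the members are highest. A 25S ribosomal RNA control had 7778 and 8361 in sicy-192 gun1-101, 1378 and 1173 in sicy-192, and 452 and 1763 in wild type. Of the root markers, PYK10 had 20488 and 16879 in sicy-192 gun1-101, 21943 and 17665 in sicy-192, and 21216 and 20158 in wild type. EXPA7 was too dim to be tested, with signals between 3.17 and 28.0. Listed vasculature and seed markers were not on the table, and the only guard cell marker on it was FMA. FMA had 79.1 and 72.0 in sicy-192 gun1-101, 89.1 and 83.6 in sicy-192, and 159 and 145 in wild type, and was lower than wild type in the double mutant (limma adjusted p = 0.0154) and in sicy-192 (limma adjusted p = 0.0417). The ratio of the 3' to the 5' actin probe set, which rises where RNA is degraded or copied incompletely, was 24.4 and 26.1 in sicy-192 gun1-101, 36.8 and 26.0 in sicy-192, and 20.1 and 22.1 in wild type. For the GAPDH control the same ratio was 1.79 and 1.42 in sicy-192 gun1-101, 2.3 and 1.55 in sicy-192, and 2.57 and 2.01 in wild type. The actin and GAPDH ratios thus did not order the genotypes alike.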

How the data were processed

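The authors deposited linear signal intensities, 1 per probe set of a 1-colour Affymetrix array, which their values show to have been scaled so that the mean after trimming 2% from either end is 500. The submitters' processing notes name GCOS, and the algorithm and its version are not given in the sources used here. The number of arrays limits the precision. Arrays were rescaled to that mean, 16 was added and log2 taken, which understates changes of dim probe sets. Probe sets above the 35th percentile of mean log2 signal (6.05) were tested. All 6 arrays entered 1 limma fit (limma 3.58.1, R 4.3.3, two-sided moderated tests from eBayes, variance trend on, 3 residual and 6.27 prior degrees of freedom), adjusted by Benjamini-Hochberg. The fit was also run on simulated data with independent noise for each array. That setting leaves out the correlation between same-numbered arrays given below, so nothing is concluded from it. Gene names came from the platform annotation, updated through RefSeq, and all 58 named members matched a locus. Coordinates are left out because the genome build is not given in the sources used here.

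The members and lists were chosen with earlier results of these data known. Named members are those with the 12 largest rises, the 12 highest signals in sicy-192, the 6 highest and 6 lowest differences between double mutant and wild type, those on a gene list or beside another member, and those nearest the thresholds. Members with a gene name, the 3 untested ones, unnamed probe sets, neighbours and family genes were added after values were seen. Of 11 gene lists, 2 are described, the RNA-directed DNA methylation list, which holds chr31, and the mitochondrial dysfunction list. The latter is an example only, with 4 of 10 tested genes called higher in sicy-192 than in wild type. The other 9 lists held 0 members. Among these, anthocyanin synthesis had a more uniform response. Both mutant genotypes exceeded wild type in all 4 of its tested genes, by limma calls, and 0 were called between the mutants. Alternatives were other offsets, filters, scalings and thresholds, no variance trend, the replicate number as a block, and leaving out each array.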

Additional observations from a re-analysis of the deposited data

How the results depend on the processing

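The number of members was 71 when each array was centred on its median, 220 with a threshold of 0.8 and 64 with 1.2, and it ran from 107 to 156 when 1 array was left out. In the other settings it stayed within 1.5 times of 109. A similar count did not mean the same members. Leaving out 1 array kept 78.9% to 91.7% of the 109, and an offset of 64 kept 67.0%. Of the probe sets chosen without 1 array, 57.7% to 85.3% were among the 109. Of the 23 members called between double mutant and wild type, 13 kept their call under every alternative that tested them, 10 lost it under at least 1 and 0 reversed. Of the 13, 9 were tested in all 17 alternatives and 4 in 15 or 16. Without 1 array, the count higher ran from 11 to 15 and the count lower from 5 to 9, with 5 reached without replicate 2 of the double mutant.

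With the replicate number as a block, 21 members were higher and 17 lower in the double mutant than in wild type. Deviations of same-numbered arrays correlated at 0.329 to 0.436 between genotypes, and the bioB control differed between the numbers in every genotype. No label says what a number shares, so the block is given as an alternative. Over all probe sets the block gave 3469 higher in sicy-192 than in wild type against 2041 without it. For the double mutant against sicy-192 it gave 2190 higher and 2727 lower against 1410 and 1650.

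Median centring left 862 probe sets higher in sicy-192 than in wild type. Leaving out 1 array gave 1026 to 1695 higher in sicy-192 than in wild type, 679 to 1502 higher and 778 to 1760 lower in the double mutant than in sicy-192, and 1257 to 2480 higher and 1050 to 1845 lower in the double mutant than in wild type. Centring shifted the median difference of all probe sets between sicy-192 and wild type by -0.19 and quantile normalization by -0.11. The cause of these changes was not tested. With 2 arrays per genotype and wild-type signals under 50 for 19 members, small differences at low signal could not be resolved.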
